A study of Mus musculus with 12 samples.

Results

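The Hox cluster genes were all rows of the deposited count table whose symbol is Hoxa, Hoxb, Hoxc or Hoxd followed by a number. This gave 39 genes of 35013 rows: 11 Hoxa, 10 Hoxb, 9 Hoxc and 9 Hoxd genes. RNA had been sequenced from KP1, a mouse cell line labelled as lung adenocarcinoma, after poly-A selection. KP1 cells that overexpressed NRF2, the transcription factor of the antioxidant response encoded by Nfe2l2, or that carried an empty vector (EV) were given 5 nM romidepsin, a histone deacetylase inhibitor, for 16 h, or DMSO instead. The 4 groups, with 3 libraries each, were NRF2 cells with romidepsin, NRF2 cells with DMSO, EV cells with romidepsin and EV cells with DMSO. The series calls the libraries of a group biological replicates. All groups rest on the same line, and the labels used here give neither the promoter of the NRF2 construct nor the number of clones.

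Hox genes encode homeodomain transcription factors that give cells along the head-to-tail axis their regional identity. In mammals they lie in 4 clusters, and their order along the chromosome follows the order in which they are used from head to tail, with paralogue group 1 at the head end. Outside their proper region they are held silent by Polycomb complexes, which modify and compact chromatin, and they are opened by Trithorax methyltransferases and by retinoic acid. Adult lung cells are known to keep some Hox genes active, mainly of groups 2 to 6. The comparisons asked which members are expressed in KP1 cells, and whether a deacetylase inhibitor or NRF2 altered them.

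In the GRCm38 annotation of GENCODE, the Hoxa members spanned 105 kb of chromosome 6 (52155590 to 52260880), the Hoxb members 174 kb of chromosome 11 (96194316 to 96368256), the Hoxc members 116 kb of chromosome 15 (102921103 to 103036852) and the Hoxd members 96.8 kb of chromosome 2 (74668310 to 74765142). RefSeq promoters of GRCm38.p6 were at hand for 22 of the 39 members. The 250 bases before the start of 4 of them are shown, because they set a pair of members with counts (Hoxb1 and Hoxc4) beside a pair without any (Hoxa13 and Hoxd8). Each reads 5′ to 3′ on the gene's strand, and capitals mark CpG dinucleotides, the sites of DNA methylation.
Hoxb1: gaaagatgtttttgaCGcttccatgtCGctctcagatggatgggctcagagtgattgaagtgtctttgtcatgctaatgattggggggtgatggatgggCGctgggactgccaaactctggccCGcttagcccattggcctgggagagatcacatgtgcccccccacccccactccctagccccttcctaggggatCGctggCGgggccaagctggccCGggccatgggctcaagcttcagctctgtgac
Hoxc4: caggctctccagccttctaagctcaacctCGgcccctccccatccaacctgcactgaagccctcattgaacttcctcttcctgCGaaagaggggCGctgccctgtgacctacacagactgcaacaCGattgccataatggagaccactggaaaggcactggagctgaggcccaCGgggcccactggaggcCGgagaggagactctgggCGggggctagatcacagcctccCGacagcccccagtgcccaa
Hoxa13: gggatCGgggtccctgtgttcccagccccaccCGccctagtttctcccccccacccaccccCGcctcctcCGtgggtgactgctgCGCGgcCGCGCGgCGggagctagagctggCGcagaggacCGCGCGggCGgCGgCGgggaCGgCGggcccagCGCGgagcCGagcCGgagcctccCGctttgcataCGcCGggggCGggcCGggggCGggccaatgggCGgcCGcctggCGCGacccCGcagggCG
Hoxd8: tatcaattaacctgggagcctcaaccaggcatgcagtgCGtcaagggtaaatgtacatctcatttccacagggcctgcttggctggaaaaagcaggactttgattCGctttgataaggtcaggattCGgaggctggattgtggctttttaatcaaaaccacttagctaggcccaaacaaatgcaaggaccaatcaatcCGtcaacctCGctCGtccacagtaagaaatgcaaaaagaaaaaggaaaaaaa

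The Hoxb1 sequence holds 7 CpG dinucleotides and lies on the plus strand at chr11:96365508-96365757. Hoxc4 holds 8, on the plus strand at chr15:103034145-103034394. Hoxa13, which had no count, holds 35, on the minus strand at chr6:52260881-52261130, and Hoxd8, which had none either, holds 6, on the plus strand at chr2:74704365-74704614. The values of Hoxa13 and Hoxd8 lay on either side of those of Hoxb1 and Hoxc4. Pairs chosen as examples cannot show whether CpG number goes with expression. The other members without a count that had a promoter at hand held 6 (Hoxa2), 13 (Hoxa11), 24 (Hoxd1) and 31 (Hoxd13). Members with counts ranged from 2 (Hoxd11, whose other promoter held 20) to 28 (Hoxa5). The difference between members with and without counts was not tested. The shares that follow take a single promoter per gene, although Hoxa10 and Hoxd11 have more. Over the 22 members the median was 12 CpG per 250 bases, against 6 over 27025 genes with a promoter, and the GC content was 56.8%, against 52%. The CCAAT box, searched as CCAAT on both strands, was in 59.1% of the Hox promoters and in 34.5% of all promoters. The retinoic acid receptor half-site AGGTCA was in 27.3% of the Hox promoters and 13.8% of all, the TATA box TATAAA in 13.6% and 13%, and the GC box GGGCGG in 40.9% and 32.9%. The core of the NRF2-binding element, TGACNNNGC on either strand, was in the promoter of Hoxa6 alone among these 22 members, or 4.55%, against 10.1% of all promoters. These are letter matches in a short window.

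Libraries held 16842824 to 28003010 estimated counts. CPM values, counts relative to the library total, also carry TMM scaling factors unless stated. Nfe2l2 averaged 348 ± 13.8 CPM in NRF2 cells and 96.3 ± 2.89 CPM in EV cells with romidepsin, and 305 ± 40.7 CPM in NRF2 cells and 102 ± 1.37 CPM in EV cells with DMSO (SD, n = 3 each), in the direction of the labels. One NRF2 DMSO library, replicate 3, stood somewhat apart: its mean correlation with the other libraries of its group was 0.9914, against 0.9944 to 0.9967 in the 11 other libraries. Of the lung lineage genes, Nkx2-1, Sftpc, Sftpb, Sftpa1, Napsa and Scgb1a1 were at or near 0 in every group (0 to 49 counts each in all 12 libraries). The epithelial genes Cdh1, Krt8 and Krt18 were abundant, at 227 to 3671 CPM as group means. Epcam, another epithelial marker, averaged 7.23 ± 0.213 CPM with romidepsin and 0.0656 ± 0.0304 CPM with DMSO in NRF2 cells, and 3.58 ± 0.524 CPM with romidepsin and 0.0306 ± 0.0275 CPM with DMSO in EV cells.

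Hox RNA was scarce in all groups. All 39 members together held 1230 of 256067900 counts, or 3.77 to 6.66 CPM by library total alone. In all, 32 members had at least 1 count and 11 had a count in each of the 12 libraries, while 12 members had 1 to 10 counts, 11 had 11 to 50 and 9 had over 50. Only Hoxb1, Hoxb9, Hoxc6 and Hoxc9 reached the level needed for testing, 0.49 CPM by library total alone in at least 3 libraries. That is 10.3% of the members, against 38.6% of all rows and 59.9% of annotated protein-coding genes. These 4 are called expressed here.

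The margin at that threshold was narrow for all but Hoxb1. Hoxb1 reached it in 11 libraries, Hoxc6 in 7, and Hoxb9 and Hoxc9 in 4 each. Just outside, Hoxc4 and Hoxc8 reached it in 2 libraries each. With a demand of 1 CPM in 3 libraries, Hoxb1 alone stayed.

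In all, 7 of 39 members (17.9%) had no count in any library: Hoxa2, Hoxa4, Hoxa11, Hoxa13, Hoxd1, Hoxd8 and Hoxd13. Among them Hoxa2 patterns the branchial arches, and Hoxa13 and Hoxd13 shape the digits. A count of 0 over all 12 libraries allows up to 3 counts, or 0.0117 CPM. By the same measure 15% of annotated protein-coding genes and 35.2% of all rows had no count.

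**Figure D1:**
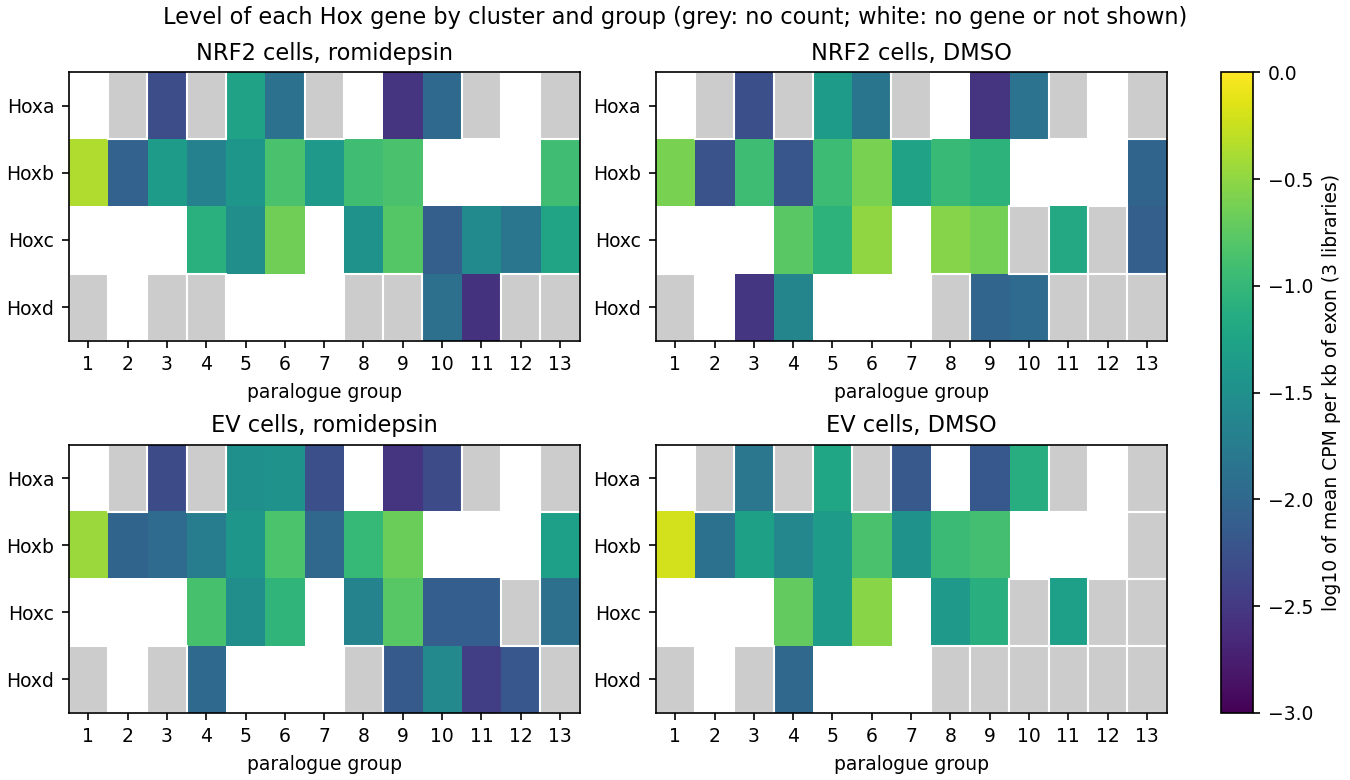
Colour gives the mean level of each Hox gene (log10 of CPM per kb of exon, 3 libraries) by cluster (rows) and paralogue group (columns) in the 4 groups of libraries; grey cells are genes without a count in that group and white cells are positions without a gene or not shown. The Hoxb and Hoxc rows are filled in most columns, Hoxb1 is the brightest cell in the panels other than that of NRF2 cells with DMSO, where Hoxc6 is, and grey cells gather in Hoxa and Hoxd.

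The clusters differed widely in level. The Hoxb cluster held 663 counts, or 53.9% of all Hox counts, and Hoxc held 466, or 37.9%. Hoxa held 81 counts (6.59%) and Hoxd 20 (1.63%). The expressed members were 2 of 10 Hoxb genes and 2 of 9 Hoxc genes, against 0 of 11 Hoxa and 0 of 9 Hoxd genes, and all 7 members without a count were Hoxa (4) or Hoxd (3) genes. In some library the whole Hoxd cluster had no count at all.

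Per kb of exon, Hoxb1 led with 0.419 CPM per kb over the 12 libraries. It was followed by Hoxc6 (0.232), Hoxb6 (0.166), Hoxc9 (0.160), Hoxc4 (0.144), Hoxb9 (0.141), Hoxb8 (0.109) and Hoxc8 (0.0964), all in CPM per kb. By position in the axis code, paralogue groups 1 to 3 held 27.7% of Hox counts, groups 4 to 8 held 48.5%, and groups 9 to 13 held 23.7%. Hoxb1 alone supplied most of the head-end share. Hoxa5, which the mouse needs for lung morphogenesis, had 22 counts in all.

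Between groups the summed level of the Hoxc cluster varied most in absolute CPM. Hoxc summed to 1.56 ± 0.109 CPM with romidepsin and 3.01 ± 0.886 CPM with DMSO in NRF2 cells, and to 1.19 ± 0.0668 CPM with romidepsin and 1.73 ± 0.246 CPM with DMSO in EV cells (SD, n = 3 each). In NRF2 and EV cells alike every romidepsin library lay below every DMSO library. The highest Hoxc sum, 4.0 CPM, was in the NRF2 DMSO replicate that stood apart; the other NRF2 DMSO libraries had 2.75 and 2.28 CPM. No p is given for sums over members, since the members were chosen together.

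The Hoxb sum was 2.67 ± 0.492 CPM with romidepsin and 2.52 ± 0.188 CPM with DMSO in NRF2 cells, and 2.28 ± 0.271 CPM with romidepsin and 2.85 ± 0.470 CPM with DMSO in EV cells. The libraries of romidepsin and DMSO overlapped in NRF2 and EV cells alike. Hoxa summed to 0.245 ± 0.137 and 0.259 ± 0.160 CPM with romidepsin and DMSO in NRF2 cells, and to 0.264 ± 0.0856 and 0.517 ± 0.239 CPM with romidepsin and DMSO in EV cells. Hoxd summed to 0.0351 ± 0.0608 and 0.122 ± 0.0750 CPM with romidepsin and DMSO in NRF2 cells, and in EV cells it was 0.0982, 0.135 and 0.141 CPM with romidepsin, against 0.0534, 0 and 0.0385 CPM with DMSO. At this depth such sums are a handful of reads.

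The sums of central and of tail-end paralogue groups lay closer together with romidepsin than with DMSO. Groups 4 to 8 summed to 1.86 ± 0.339 CPM with romidepsin and 3.64 ± 0.940 CPM with DMSO in NRF2 cells, and to 1.58 ± 0.197 CPM with romidepsin and 2.41 ± 0.252 CPM with DMSO in EV cells. Groups 9 to 13 summed to 1.33 ± 0.140 CPM with romidepsin and 1.06 ± 0.0294 CPM with DMSO in NRF2 cells, and to 1.25 ± 0.113 CPM with romidepsin and 0.891 ± 0.122 CPM with DMSO in EV cells. For groups 4 to 8 the romidepsin libraries were all below the DMSO libraries of the same kind of cell, and for groups 9 to 13 they were all above. Groups 1 to 3 did not follow either pattern, with 1.32 ± 0.182 CPM with romidepsin and 1.21 ± 0.135 CPM with DMSO in NRF2 cells, where libraries overlapped, and 1.03 ± 0.161 CPM with romidepsin and 1.83 ± 0.414 CPM with DMSO in EV cells, where every romidepsin library was lower. Some members behind groups 9 to 13 moved alike in NRF2 and EV cells. Hoxb13 averaged 0.265 CPM with romidepsin and 0.0202 CPM with DMSO in NRF2 cells, and 0.108 and 0 CPM in EV cells. Hoxb9 averaged 0.354 and 0.224 CPM in NRF2 cells, and 0.549 and 0.328 CPM in EV cells. Hoxc13 was also higher (0.139 and 0.0202 CPM, 0.0314 and 0 CPM), and Hoxc11 was lower (0.0546 and 0.129 CPM, 0.0157 and 0.0998 CPM). Hoxc9 was lower in NRF2 cells (0.397 and 0.567 CPM) and higher in EV cells (0.406 and 0.184 CPM). Hoxa10 averaged 0.0351 and 0.0454 CPM in NRF2 cells, and 0.0164 and 0.242 CPM in EV cells. Within groups 4 to 8, Hoxc8 in NRF2 cells averaged 0.0960 CPM with romidepsin and 0.817 CPM with DMSO. These are descriptions without a test.

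**Figure D2:**
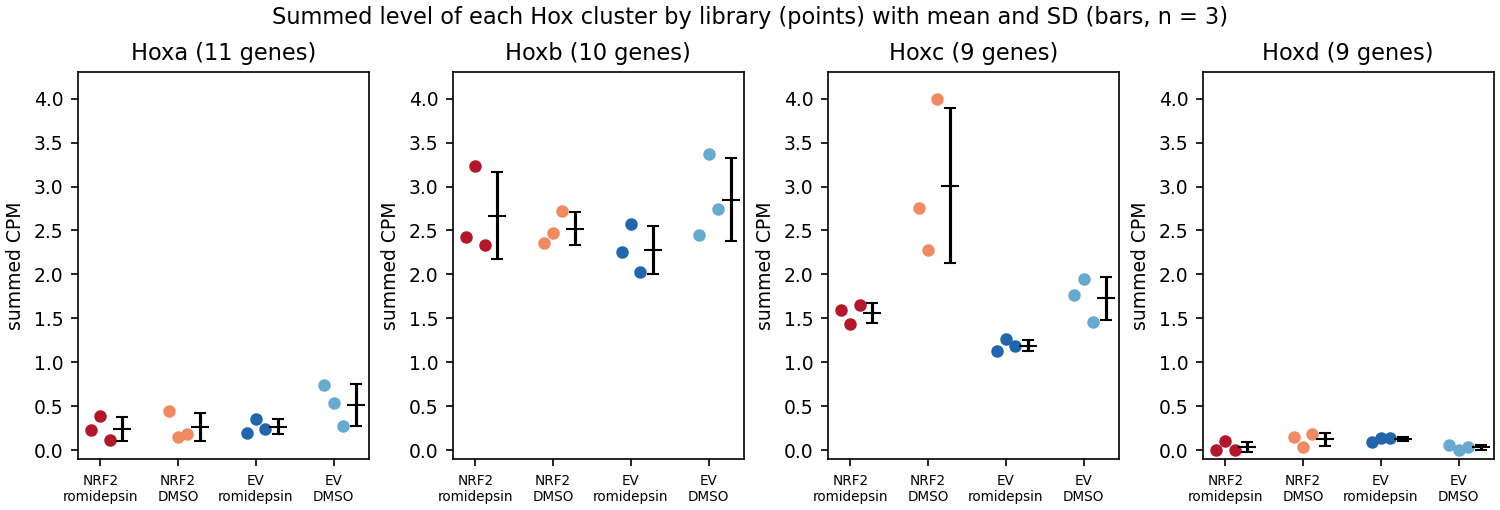
Summed CPM of each Hox cluster (vertical axis) in each library (points) of the 4 groups, with the mean and SD of 3 libraries (bars). Hoxb and Hoxc stand at 1.13 to 4.0 CPM and Hoxa and Hoxd at 0 to 0.747 CPM, and in NRF2 and EV cells alike the Hoxc points are lower with romidepsin than with DMSO.

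Hoxb1, which sets the identity of a hindbrain segment in the embryo, changed with romidepsin in opposite directions in NRF2 and EV cells. In NRF2 cells it had 0.981, 1.05 and 1.03 CPM with romidepsin, against 0.589, 0.494 and 0.666 CPM with DMSO. In EV cells it had 0.638, 1.04 and 0.802 CPM with romidepsin, against 1.23, 1.95 and 1.19 CPM with DMSO. The libraries of the 2 treatments did not overlap in either kind of cell, and their order was reversed.

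Hoxb1 (ENSMUSG00000018973.2, chromosome 11, 96365752 to 96368256) thus rose with romidepsin in NRF2 cells by 0.83 ± 0.30 (log2 fold change ± SE; adjusted p = 0.018, edgeR's quasi-likelihood test with Benjamini-Hochberg adjustment over all 13502 tested genes). In EV cells it fell, with a log2 fold change of -0.78 ± 0.27 (adjusted p = 0.014, edgeR). The difference between these effects was itself significant, at 1.61 ± 0.41 (interaction, adjusted p = 0.012, edgeR). It passed the threshold under every alternative run, with leave-one-out values of 1.37 to 1.81.

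With DMSO, Hoxb1 was lower in NRF2 cells than in EV cells, by a log2 fold change of -1.31 ± 0.29 (adjusted p = 0.0017, edgeR). With romidepsin the NRF2-minus-EV value was 0.30 ± 0.28 (adjusted p = 0.41, edgeR), and the libraries overlapped. Either romidepsin call of Hoxb1 was lost without single libraries: in NRF2 cells without NRF2 DMSO replicate 2 (adjusted p = 0.082, edgeR) or NRF2 romidepsin replicate 2 (0.051), and in EV cells without EV DMSO replicate 2 (0.092) or EV romidepsin replicate 1 (0.066). The group counts behind these values were 69 with romidepsin and 36 with DMSO in NRF2 cells, and 53 with romidepsin and 87 with DMSO in EV cells.

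Hoxc6, a gene of the thoracic region, fell with romidepsin in EV cells. It had 0.245, 0.180 and 0.236 CPM with romidepsin, against 0.747, 0.888 and 0.463 CPM with DMSO, a log2 fold change of -1.60 ± 0.39 (adjusted p = 0.0013, edgeR). Hoxc6 was too low to be tested when the EV groups were fitted alone. In NRF2 cells Hoxc6 had 0.607, 0.457 and 0.570 CPM with romidepsin, against 0.835, 0.685 and 0.787 CPM with DMSO. The libraries did not overlap there either, but the change of -0.50 ± 0.32 did not pass (adjusted p = 0.15, edgeR).

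The difference between the romidepsin effects on Hoxc6 was 1.09 ± 0.51 and did not pass (adjusted p = 0.16, edgeR), so the effects are not shown to differ between NRF2 and EV cells. With romidepsin, Hoxc6 (ENSMUSG00000001661.5, chromosome 15, 102998257 to 103011881) was higher in NRF2 than in EV cells by 1.27 ± 0.40 (adjusted p = 0.016, edgeR). This call was lost without EV romidepsin replicate 2 (0.064) or NRF2 romidepsin replicate 1 (0.054). It was not tested when the romidepsin groups were fitted alone, where Hoxc6 was too low. With DMSO the NRF2-minus-EV value was 0.17 ± 0.31 (adjusted p = 0.71, edgeR).

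Hoxc9, a thoracic gene that in mouse and chick helps to set motor neuron identity, was higher in NRF2 than in EV cells with DMSO. It had 0.540, 0.494 and 0.666 CPM in NRF2 cells, against 0.160, 0.237 and 0.154 CPM in EV cells, a log2 fold change of 1.61 ± 0.45 (adjusted p = 0.0089, edgeR). The 2 groups did not overlap. The leave-one-out adjusted p reached 0.047, the call was lost without both the filter and NRF2 DMSO replicate 3 (0.052), and Hoxc9 was too low to be tested when the DMSO groups were fitted alone. With romidepsin Hoxc9 had 0.374, 0.246 and 0.570 CPM in NRF2 cells, against 0.393, 0.495 and 0.330 CPM in EV cells, which overlapped (log2 fold change -0.11 ± 0.40, adjusted p = 0.84, edgeR).

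Romidepsin raised Hoxc9 (ENSMUSG00000036139.6, chromosome 15, 102976439 to 102985099) in EV cells by 1.16 ± 0.47 (adjusted p = 0.033, edgeR). That call did not hold with DESeq2 (0.079), without the filter on low counts (0.091) or without any of EV DMSO replicates 1 and 3 and EV romidepsin replicates 1 and 2 (0.056 to 0.11). Hoxc9 was too low to be tested when the EV groups were fitted alone. In NRF2 cells the value was -0.56 ± 0.38 (adjusted p = 0.18, edgeR), and the difference between NRF2 and EV cells was -1.72 ± 0.60 (adjusted p = 0.063, edgeR). Without NRF2 romidepsin replicate 3 that difference passed, at -2.03 (adjusted p = 0.044, edgeR).

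Hoxb9, which patterns the ribs, was not called in any comparison. It had 0.0934, 0.457 and 0.513 CPM with romidepsin, against 0.147, 0.342 and 0.182 CPM with DMSO, in NRF2 cells. In EV cells it had 0.491, 0.495 and 0.660 CPM with romidepsin, against 0.320, 0.355 and 0.308 CPM with DMSO. The EV groups did not overlap, yet the change of 0.74 ± 0.46 did not pass (adjusted p = 0.15, edgeR). Hoxb9 reached the level for testing only in romidepsin libraries, among them every EV romidepsin library, so the lack of overlap is no support for a change. The value in NRF2 cells was 0.58 ± 0.53 (adjusted p = 0.32, edgeR).

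Counted over the 4 expressed members, romidepsin raised 1 and lowered 0 in NRF2 cells, where 40.5% of all 13502 tested genes were called higher and 39.3% lower (79.8% in all). In EV cells it raised 1 and lowered 2, beside 39.1% of all genes higher and 37.4% lower (76.5% in all). NRF2 raised 1 and lowered 0 with romidepsin, beside 23.0% higher and 22.4% lower (45.4% in all). With DMSO NRF2 raised 1 and lowered 1, beside 19.3% higher and 16.9% lower (36.3% in all). The interaction was called for 1 member, upward, beside 5.53% of all genes upward and 10.2% downward (15.8% in all). With 4 members these counts say little beside the background shares.

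**Figure D3:**
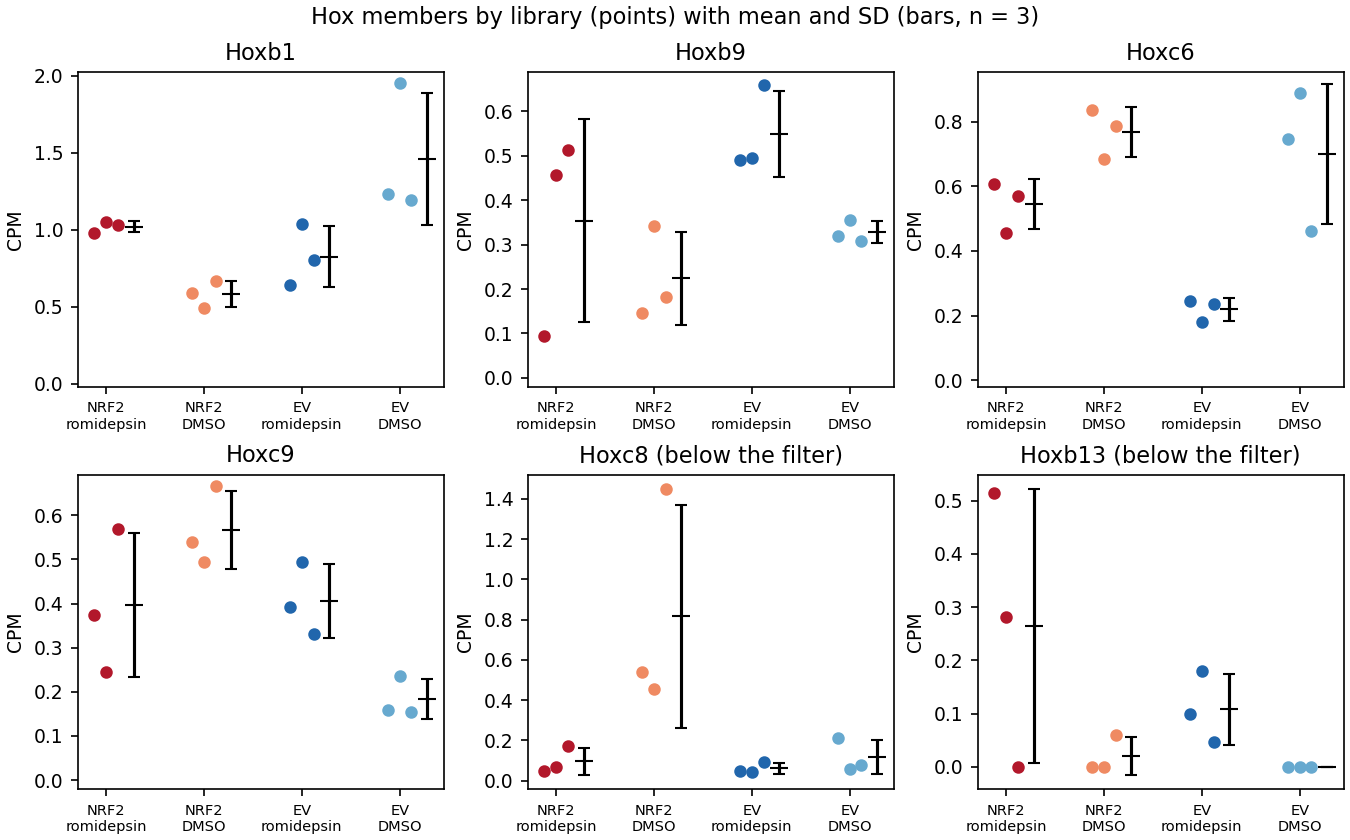
CPM (vertical axis) of the 4 expressed members Hoxb1, Hoxb9, Hoxc6 and Hoxc9 and of Hoxc8 and Hoxb13, which fell below the filter, in each library (points) of the 4 groups, with the mean and SD of 3 libraries (bars). Hoxb1 points are higher with romidepsin than with DMSO in NRF2 cells and lower in EV cells; a single NRF2 DMSO library at 1.45 CPM tops the Hoxc8 panel.

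The remaining 28 members with counts did not reach that level, and they were tested in a fit without the filter, over all 22682 genes that had a count. In that fit romidepsin was called to raise 26.2% and lower 24.1% of genes in NRF2 cells (50.3% in all), and to raise 24.5% and lower 22.4% in EV cells (46.9% in all). For NRF2 against EV cells 12.7% were higher and 13.1% lower with romidepsin (25.8% in all), and 11.3% higher and 8.98% lower with DMSO (20.3% in all). The interaction was called for 2.76% upward and 6.08% downward (8.85% in all), Hoxb1 being the one Hox member among them. Among the low members, Hoxc8, Hoxb13, Hoxb3 and Hoxa10 passed in at least 1 comparison. Their totals over all libraries were 64, 27, 60 and 21 counts.

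Hoxc8, a thoracic gene, had 0.0467, 0.0703 and 0.171 CPM in NRF2 cells with romidepsin, against 0.540, 0.456 and 1.45 CPM in NRF2 cells with DMSO, that is 6 and 47 counts. Its log2 fold change was -3.07 ± 0.65 (adjusted p = 4.9e-05, edgeR without the filter), and -2.42 ± 0.76 without the library that stood apart (adjusted p = 0.0034, edgeR). In EV cells it had 0.0491, 0.0450 and 0.0943 CPM with romidepsin, against 0.213, 0.0592 and 0.0771 CPM with DMSO (4 and 7 counts). With DMSO Hoxc8 was higher in NRF2 than in EV cells, by 2.73 ± 0.63 (adjusted p = 0.00073, edgeR without the filter), or 2.07 ± 0.75 without that library (adjusted p = 0.025, edgeR).

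Hoxb13, the most tail-end gene of its cluster and a known regulator of the prostate, was seen almost only with romidepsin. It had 0.514, 0.281 and 0 CPM with romidepsin, against 0, 0 and 0.0605 CPM with DMSO, in NRF2 cells, and 0.0982, 0.180 and 0.0472 CPM with romidepsin, against 0 in all 3 DMSO libraries, in EV cells. The counts were 19 and 1 in NRF2 cells, a ratio of 17.8 with a 95% counting interval of 2.83 to 740, and 7 and 0 in EV cells, at least 2.25-fold higher with 3 counts taken as the limit of the empty DMSO group. The adjusted p was 0.0071 in NRF2 cells and 0.033 in EV cells (edgeR without the filter). The highest value came from NRF2 romidepsin replicate 1, and replicate 3 of that group had none.

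Hoxb3, a hindbrain gene, fell with romidepsin in NRF2 and EV cells alike. It had 0.0934, 0.246 and 0.228 CPM with romidepsin, against 0.540, 0.456 and 0.484 CPM with DMSO, in NRF2 cells (log2 fold change -1.36 ± 0.57, adjusted p = 0.04, edgeR without the filter). In EV cells it had 0.0491, 0.0450 and 0.0472 CPM with romidepsin, against 0.160, 0.296 and 0.193 CPM with DMSO (-2.06 ± 0.82, adjusted p = 0.035, edgeR without the filter). Without the library that stood apart, the NRF2 call was lost (adjusted p = 0.062, edgeR). Of the exon bases of Hoxb3, 52.9% are shared with the antisense gene Hoxb3os, and the sources used here do not say whether counting used the strand.

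Hoxa10, a gene of the posterior trunk and the uterus, fell with romidepsin in EV cells. It had 0.0491, 0 and 0 CPM with romidepsin, against 0.374, 0.237 and 0.116 CPM with DMSO (1 and 14 counts), 14.5-fold lower with a counting interval of 2.21 to 613 (adjusted p = 0.012, edgeR without the filter). In NRF2 cells 3 counts stood on either side. The other low members did not pass in any comparison over all libraries. Hoxc13, another tail-end gene, had 10 counts with romidepsin and 1 with DMSO in NRF2 cells (adjusted p = 0.078, edgeR without the filter), and 2 and 0 in EV cells. Its only count with DMSO in NRF2 cells lay in the library that stood apart. Leaving that library out emptied the DMSO group, so the pass of Hoxc13 there (adjusted p = 0.029, edgeR) adds no support.

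Hoxb5 had 8 counts with romidepsin and 20 with DMSO in NRF2 cells, and 7 and 8 in EV cells. Hoxc4 had 15 and 27 counts with romidepsin and DMSO in NRF2 cells, and 22 and 29 in EV cells. Hoxb6 had 19 and 29 counts with romidepsin and DMSO in NRF2 cells and 18 and 17 in EV cells, and Hoxb8 had 23 and 19 counts with romidepsin and DMSO in NRF2 cells and 17 and 19 in EV cells. Hoxc5 had 36 counts in all, Hoxc11 21, Hoxb7 14, Hoxa3 12 and Hoxb4 11. The members with 1 to 10 counts were Hoxd4 and Hoxb2 (8 each), Hoxd10 (6), Hoxa9 (5), Hoxa6 (4), Hoxa7, Hoxc10, Hoxd9 and Hoxd11 (2 each) and Hoxc12, Hoxd3 and Hoxd12 (1 each). For Hoxd3 and Hoxd4, 53.1% and 39.1% of exon bases are shared with the overlapping gene Gm28230, so their counts are uncertain.

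A separate count took the members with low levels in DMSO and asked how many reached a set level with romidepsin. Of the members below 0.5 CPM with DMSO, 0 of 35 in NRF2 cells and 0 of 37 in EV cells reached 1 CPM with romidepsin. Among annotated protein-coding genes 6.85% of 9797 did so in NRF2 cells and 5.74% of 9888 in EV cells; over all rows of the table the shares were 3.03% and 2.56%. At 0.5 CPM, a threshold added after the values were seen, 0 of 35 members in NRF2 cells and 1 of 37 in EV cells passed, against 11.7% and 10.5% of protein-coding genes and 5.39% and 4.83% of all rows. That member is Hoxb9, which had counts in all 3 EV DMSO libraries and whose change did not pass (above). These counts are descriptions, and at 35 to 37 members the background shares would give only a few genes.

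Partners and regulators of Hox proteins were taken from lists chosen with earlier results of these data known. Their counts are read against the 79.8% of all tested genes called with romidepsin in NRF2 cells (40.5% higher, 39.3% lower) and the 76.5% in EV cells (39.1% higher, 37.4% lower), and such shares of small lists near the background do not set a list apart. The TALE cofactors, homeodomain proteins that bind DNA with Hox proteins, had 8 of 9 members tested. With romidepsin 3 rose and 4 fell in NRF2 cells, and 3 rose and 3 fell in EV cells, with median log2 fold changes of -0.19 and -0.06, beside 0.01 over all genes in either kind of cell. Pbx4 rose by 2.90 ± 0.11 in NRF2 cells and 3.03 ± 0.12 in EV cells.

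Pbx3, another cofactor of the list, fell to 13.5 ± 1.55 CPM with romidepsin, against 30.2 ± 2.71 CPM with DMSO, in NRF2 cells, and to 16.3 ± 0.777 CPM, against 32.6 ± 2.38 CPM, in EV cells (adjusted p = 1.5e-09 and 1.0e-08, edgeR). Meis1, present at 0.795 to 1.46 CPM, rose by 0.76 ± 0.31 in NRF2 and 0.90 ± 0.32 in EV cells (adjusted p = 0.033 and 0.017, edgeR), and either call was lost in 3 of the leave-one-out fits. NRF2 raised Pbx4 by 0.60 ± 0.09 with romidepsin and 0.72 ± 0.15 with DMSO and raised Meis3 by 0.36 ± 0.08 with romidepsin and 0.64 ± 0.08 with DMSO.

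All 32 Polycomb genes were tested. With romidepsin 6 rose and 18 fell in NRF2 cells (median log2 fold change -0.29), and 9 rose and 17 fell in EV cells (median -0.32), beside 79.8% and 76.5% of all genes called. Bmi1, a core subunit of Polycomb repressive complex PRC1, averaged 18.0 ± 0.230 CPM with romidepsin and 83.2 ± 3.52 CPM with DMSO in NRF2 cells, and 20.8 ± 1.53 CPM with romidepsin and 85.0 ± 0.841 CPM with DMSO in EV cells. Its log2 fold changes were -2.21 ± 0.06 and -2.03 ± 0.06 in NRF2 and EV cells. Phf19, a PRC2 accessory subunit, fell (-2.13 ± 0.12 in NRF2 cells and -2.53 ± 0.11 in EV cells), as did Asxl1 (-1.38 ± 0.05 and -1.14 ± 0.05) and the PRC2 methyltransferase Ezh2 (-1.15 ± 0.07 and -0.79 ± 0.07).

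Of the 20 Trithorax and demethylase genes, all tested, 7 rose and 12 fell in NRF2 cells and 5 rose and 13 fell in EV cells (medians -0.48 and -0.43), beside the same 79.8% and 76.5%. The methyltransferase genes Setd1b (-2.29 ± 0.09 in NRF2 cells, -2.05 ± 0.09 in EV cells) and Kmt2b (-1.14 ± 0.05, -1.15 ± 0.05) fell, and so did their partner Hcfc1 (-1.36 ± 0.05, -1.30 ± 0.05). More genes of either system were lower than higher with romidepsin. NRF2 lowered 13 and raised 2 Polycomb genes with romidepsin, where 22.4% of all genes were lower and 23.0% higher, and lowered 6 and raised 3 with DMSO, where 16.9% were lower and 19.3% higher. Under other scalings more Polycomb genes rose with romidepsin in NRF2 cells, 10 with upper-quartile factors and 11 with library size alone.

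Retinoic acid is a direct activator of head-end Hox genes. Of 24 genes listed for it and for other upstream activators, 16 were tested, and with romidepsin 10 rose and 4 fell in NRF2 cells and 7 rose and 6 fell in EV cells, beside 79.8% and 76.5% of all genes called. Crabp2, which carries retinoic acid to its receptors, averaged 27 ± 0.248 CPM with romidepsin and 0.967 ± 0.355 CPM with DMSO in NRF2 cells, and 16.4 ± 1.22 CPM with romidepsin and 0.685 ± 0.127 CPM with DMSO in EV cells. Its log2 fold changes were 4.80 ± 0.15 and 4.61 ± 0.16 in NRF2 and EV cells. Aldh1a3, an enzyme that makes retinoic acid, rose by 3.16 ± 0.18 in NRF2 and 3.27 ± 0.20 in EV cells, and Gdf11, a signal that shifts Hox expression towards the tail end, rose by 2.32 ± 0.09 and 2.33 ± 0.09.

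Egr2, an activator of hindbrain Hox genes, rose by 2.87 ± 0.28 in NRF2 cells and 2.17 ± 0.28 in EV cells. Aldh1a1, another enzyme that makes retinoic acid, rose by 0.87 ± 0.06 in NRF2 cells and 1.37 ± 0.07 in EV cells. Cdx2, a direct activator of central Hox genes, was named after its values were seen. It had 8.22, 8.33 and 9.01 CPM with romidepsin, against 16, 13 and 14.2 CPM with DMSO, in NRF2 cells, and 11.1, 10.6 and 10.3 CPM with romidepsin, against 20.7, 22.7 and 22.3 CPM with DMSO, in EV cells. It fell in NRF2 and EV cells alike (-0.76 ± 0.09 and -1.03 ± 0.09, adjusted p = 5.5e-07 and 6.0e-09, edgeR). Rxra and Rxrb of the same list, also named after their values were seen, were lower with romidepsin too. Rxra averaged 27.9 ± 1.01 CPM with romidepsin and 68.9 ± 2.80 CPM with DMSO in NRF2 cells, and 31.5 ± 0.524 and 65.1 ± 2.04 CPM in EV cells. Rxrb averaged 48.2 ± 1.30 and 73.5 ± 7.45 CPM in NRF2 cells, and 44.9 ± 1.68 and 80.2 ± 1.54 CPM in EV cells. The part of these genes in the Hox values was not tested.

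NRF2 changed other genes of this list. Dhrs3, which turns retinaldehyde back into retinol, was higher in NRF2 than in EV cells by 1.88 ± 0.18 with romidepsin and by 3.41 ± 0.18 with DMSO. With DMSO Cyp26b1, which degrades retinoic acid, averaged 7.78 ± 1.35 CPM in NRF2 cells and 23.1 ± 2.46 CPM in EV cells (-1.58 ± 0.11), and Aldh1a1 was higher in NRF2 cells by 1.01 ± 0.07. With romidepsin the retinol transporter gene Stra6 was higher in NRF2 cells (1.20 ± 0.28), and its value with DMSO was -0.70 ± 0.29 (adjusted p = 0.068, edgeR).

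Most genes around the clusters were expressed. The 5 nearest annotated protein-coding genes on each side of each cluster made 40 genes, and 35 of them were tested, against 4 of 39 Hox members. Each cluster has a relative of NRF2 among them: Nfe2l3 beside Hoxa, Nfe2l1 beside Hoxb, Nfe2 beside Hoxc, and Nfe2l2, which encodes NRF2, beside Hoxd at 910 kb. With romidepsin 15 flanking genes rose and 14 fell in NRF2 cells, and 14 rose and 16 fell in EV cells, with medians of -0.07 and -0.08 beside 0.01 over all genes; 79.8% and 76.5% of all genes were called.

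The nearest gene on each side of each cluster, 8 in all, was taken by position. Calcoco1, 199 kb from Hoxc, rose with romidepsin by 1.05 ± 0.06 in NRF2 cells and 0.71 ± 0.06 in EV cells, a difference of 0.34 ± 0.09 (adjusted p = 0.012, edgeR). Skap2, 143 kb from Hoxa, averaged 27.7 ± 0.257 CPM with romidepsin and 25 ± 4.61 CPM with DMSO in NRF2 cells, and 31.7 ± 0.548 CPM with romidepsin and 26.5 ± 0.60 CPM with DMSO in EV cells (SD, n = 3 each). Its log2 fold change was 0.16 ± 0.09 in NRF2 cells (adjusted p = 0.11, edgeR) and 0.26 ± 0.09 in EV cells (adjusted p = 0.013, edgeR), and the NRF2 value passed, at 0.29, without the NRF2 DMSO library that stood apart. Mtx2, 60.7 kb from Hoxd, fell (-0.40 ± 0.05 in NRF2 cells and -0.35 ± 0.05 in EV cells), as did Smug1, 116 kb from Hoxc (-0.20 ± 0.07 and -0.36 ± 0.07). The change of Smug1 in NRF2 cells did not pass with upper-quartile or library-size scaling or with DESeq2. Skap1, 96.3 kb from Hoxb, stood at 0.318 to 0.629 CPM as group means. Its change with romidepsin did not pass (-0.39 ± 0.37 in NRF2 cells and 0.68 ± 0.34 in EV cells), though the EV value passed with upper-quartile or library-size scaling (0.79 and 0.80), and with romidepsin it was lower in NRF2 than in EV cells (-0.94 ± 0.34, adjusted p = 0.034, edgeR). The remaining 3, Evx1, Evx2 and Ttll6, were too low to be tested, and Evx1 and Evx2, homeobox genes at the ends of Hoxa and Hoxd, had no count.

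Calcoco2, 82.4 kb from Hoxb and named after its values were seen, had 0.981, 1.33 and 1.03 CPM with romidepsin, against 0 in all 3 DMSO libraries, in NRF2 cells (77 and 0 counts, adjusted p = 8.8e-07, edgeR). The EV libraries had 0.883, 0.991 and 0.424 CPM with romidepsin, against 0.0534, 0 and 0 CPM with DMSO (49 and 1 counts, adjusted p = 1.7e-05, edgeR). Among genes farther out, Copz2 rose by 3.72 ± 0.14 and 3.11 ± 0.14 and Nfe2l3 by 1.97 ± 0.13 and 1.69 ± 0.12. The heterochromatin protein gene Cbx5 fell (-1.62 ± 0.04 and -1.09 ± 0.04). Its relative Cbx3 fell too (-1.44 ± 0.05 and -1.07 ± 0.04), and Chn1 rose (1.43 ± 0.09 and 1.41 ± 0.10).

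NRF2 raised 9 and lowered 8 flanking genes with romidepsin, where 23.0% of all genes were higher and 22.4% lower. It raised 8 and lowered 8 with DMSO, where 19.3% of all genes were higher and 16.9% lower. The higher genes include the overexpressed gene itself, Nfe2l2 beside Hoxd, with romidepsin and with DMSO. With DMSO the higher and lower genes numbered 0 and 4 of 8 tested beside Hoxa, 0 and 3 of 9 beside Hoxb, 6 and 0 of 9 beside Hoxc, and 2 and 1 of 9 beside Hoxd. With romidepsin they numbered 0 and 3 beside Hoxa, 2 and 2 beside Hoxb, 4 and 1 beside Hoxc, and 3 and 2 beside Hoxd. Leaving out 1 library, 4 to 10 flanking genes in all were lower with DMSO. The difference between clusters was not tested. Calcoco1 was higher by 0.97 ± 0.06 with romidepsin and 0.63 ± 0.06 with DMSO, Chn1 by 0.56 ± 0.09 and 0.54 ± 0.11, Copz1 by 0.54 ± 0.06 and 0.28 ± 0.06, and Atp5g2 by 0.71 ± 0.16 with DMSO. Nfe2l2 itself was higher by 1.86 ± 0.07 and 1.58 ± 0.07, and its construct and its own locus cannot be told apart in these counts.

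**Figure D4:**
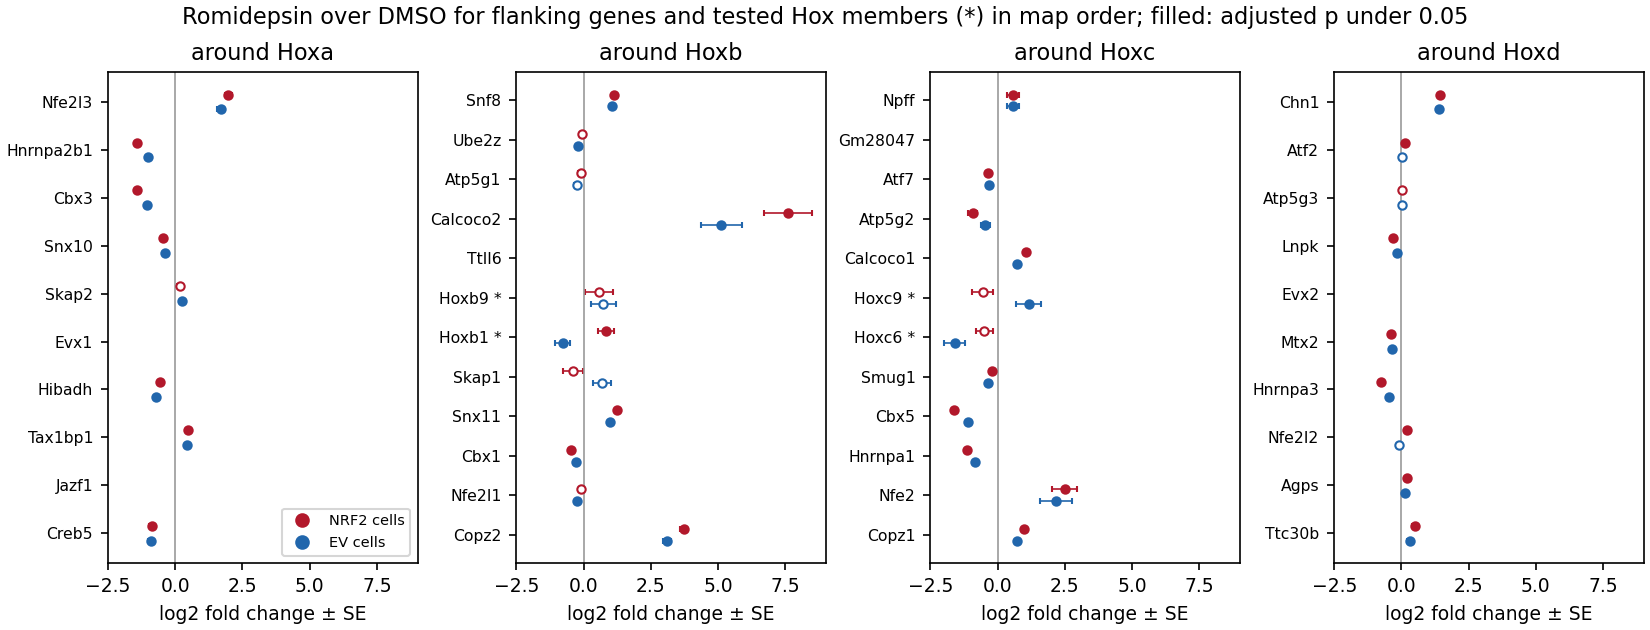
Log2 fold change (horizontal axis, bars are SE) of romidepsin over DMSO in NRF2 cells (red) and EV cells (blue) for the tested genes flanking each Hox cluster and for the tested Hox members (asterisk), in chromosome order; filled points had an adjusted p under 0.05 and names without a point were untested. Flanking genes lie on both sides of 0, 15 called higher and 14 lower in NRF2 cells, Copz2 stands at 3.72 and 3.11, and Hoxb1 has its red and blue points on opposite sides of 0.

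Markers of other cell types also moved with romidepsin. The 6 fibroblast markers summed to 11.3 to 14.1 CPM with romidepsin and 1.79 to 3.21 CPM with DMSO in NRF2 cells, and to 9.15 to 9.82 CPM with romidepsin and 1.12 to 1.77 CPM with DMSO in EV cells, with 1 or 2 of them at 0 in each group. The 5 blood and macrophage markers summed to 69.9 to 73.2 CPM and 13.5 to 14.7 CPM with romidepsin and DMSO in NRF2 cells, and to 50.7 to 55.6 CPM and 11.1 to 13.7 CPM in EV cells. Cd68 averaged 68.3 ± 1.89 CPM with romidepsin and 4.03 ± 0.324 CPM with DMSO in NRF2 cells, and 49.5 ± 2.36 CPM with romidepsin and 3.27 ± 0.636 CPM with DMSO in EV cells. Cd14 moved the other way, with 2.31 ± 0.267 CPM with romidepsin and 9.85 ± 0.386 CPM with DMSO in NRF2 cells, and 2.29 ± 0.0277 CPM with romidepsin and 9.19 ± 0.815 CPM with DMSO in EV cells. Adgre1 had 1 count in all. The 4 endothelial markers summed to 6.43 to 8.32 CPM with romidepsin and 4.12 to 4.96 CPM with DMSO in NRF2 cells, and to 5.59 to 8.35 CPM with romidepsin and 5.67 to 10.1 CPM with DMSO in EV cells. Pecam1 made up most of these sums, with 6.84 ± 0.999 and 4.48 ± 0.459 CPM in NRF2 cells, and 5.98 ± 1.33 and 8.46 ± 2.43 CPM in EV cells. Kdr was higher with romidepsin in NRF2 cells (42 and 1 counts) and in EV cells (41 and 1 counts). Cdh5 and Tek had 10 and 9 counts in all. The 10 lung epithelial markers summed to 6997 to 7328 CPM and 4205 to 4771 CPM with romidepsin and DMSO in NRF2 cells, and to 4643 to 4702 CPM and 2918 to 2967 CPM in EV cells. Krt8 and Krt18 made up most of these sums. Cdh1 moved the other way, with 227 ± 2.91 CPM with romidepsin and 417 ± 9.77 CPM with DMSO in NRF2 cells, and 246 ± 10.3 and 353 ± 11.5 CPM in EV cells. In bulk RNA, fewer cells of a type and less RNA per cell cannot be told apart, and the part of these markers in the Hox values was not tested.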

How the data were processed

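RNA of 12 KP1 libraries was sequenced after poly-A selection, per the labels' protocols. Per the submitters' processing notes bcl2fastq 2.19, kallisto 0.44.0, DESeq2 and GRCm38 were used, and the authors deposited kallisto estimated counts per gene symbol as whole numbers. kallisto shares reads of near-identical paralogues out by estimation. Whether counting used the strand is not given in the sources used here. The authors' DESeq2-normalized table was not used.

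Counts were fitted with edgeR 4.0.16 (R 4.3.3; TMM, robust quasi-likelihood, one mean per group, 8 residual degrees of freedom). Genes had to reach 0.49 CPM by library total alone in 3 libraries, which kept 13502 genes and 99.93% of counts, and calls needed a Benjamini-Hochberg adjusted p under 0.05. Each SE was derived from the log2 fold change and its F statistic. Counting intervals are exact, at 95%, and like the limit of 3 counts for a value of 0 they cover counting error only. The fitting script was tested on simulated counts.

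Positions came from GENCODE M21 and promoters from RefSeq (GRCm38.p6). The members and gene lists were chosen with earlier results of these data known. Every member that passed the filter was named, with full values for calls; from each list and the flanking genes the called genes of largest change, up to 4 per comparison and with a mean of 1 CPM or more, were named, apart from a few items that are not reported here. A list of 19 genes linked to the clusters had Evx1 and Evx2 in the table, and the rest were not analysed here. Alternatives were other scalings, filters, DESeq2 1.42.0, groups fitted alone, a replicate block and leaving out each library.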

Additional observations from a re-analysis of the deposited data

Results flagged for a closer look

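The romidepsin effect differed between NRF2 and EV cells, by the interaction test of edgeR with Benjamini-Hochberg adjustment, for Hoxb1 and for 9 of the regulator and neighbour genes named above. Each value is the effect in NRF2 cells minus that in EV cells on the log2 scale. Hoxb1 differed by 1.61 (adjusted p = 0.012), with a change of 0.83 in NRF2 cells and -0.78 in EV cells. Stra6 differed by 1.90 (adjusted p = 0.0039), rising by 1.02 in NRF2 cells with -0.88 in EV cells, so that its changes, too, had opposite signs. Cyp26b1 differed by 0.98 (0.00052), with 0.30 in NRF2 cells and -0.68 in EV cells. Dhrs3 differed by -1.53 (0.0012), with -1.24 in NRF2 cells and 0.29 in EV cells, where the change did not pass. The other genes changed in the same direction in NRF2 and EV cells. Their differences were -0.50 for Aldh1a1 (0.0012), -0.24 for Asxl1 (0.041), 0.34 for Calcoco1 (0.012), -0.37 for Cbx3 (0.00071), -0.53 for Cbx5 (2.6e-05) and -0.35 for Ezh2 (0.026). Over all tested genes 15.8% had a called interaction.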

How the results depend on the processing

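Of 754 log2 fold changes under alternatives that kept all libraries or were added later, 742 kept their direction and side of the threshold, 7 lost and 5 gained a call, and 0 reversed; with 1 library left out, 1019 of 1044 kept both, 18 lost and 2 gained a call, and 5 reversed. Upper-quartile and library-size scaling moved the median of all genes by 0.11 and 0.14 (log2) for romidepsin in NRF2 cells and by 0.11 and 0.12 in EV cells; no Hox call changed with them. Same-numbered libraries did not deviate together (18 pairs, r from -0.123 to 0.0625), so the numbers were not taken as pairs; with a replicate block the Hoxb1 interaction was 1.62 (adjusted p = 0.018, edgeR) and no Hox call changed. Without the filter romidepsin raised 2 and lowered 2 members in NRF2 cells and lowered 4 in EV cells, and NRF2 raised 2 with DMSO. Without both the filter and NRF2 DMSO replicate 3, a setting added after the data were seen, romidepsin raised 3 and lowered 1 in NRF2 cells and lowered 4 in EV cells, and Hoxc9 lost its NRF2 call with DMSO (adjusted p = 0.052, edgeR). Hoxc13, among those raised, had its only NRF2 DMSO count in the replicate left out. With 1 CPM in 3 libraries, where Hoxb1 alone was tested and counted as expressed (1 Hoxb and 0 Hoxc members), romidepsin raised 0 and lowered 1 in EV cells, and NRF2 raised 0 with romidepsin and 0 with DMSO. With the compared groups fitted alone, fewer members passed the filter, romidepsin raised 0 and lowered 1 in EV cells, and NRF2 raised 0 with romidepsin and 0 with DMSO. With DESeq2 romidepsin raised 0 in EV cells. Leaving out 1 library, romidepsin raised 0 to 1 and lowered 0 to 2 members in NRF2 cells and raised 0 to 1 and lowered 1 to 2 in EV cells, NRF2 raised 0 to 1 with romidepsin and 1 to 2 with DMSO, and the interaction was called downward for 0 to 1. The filter follows the smallest group, so it was eased in these fits, and 4 to 6 members were tested. The calls lower with romidepsin in NRF2 cells were of Hoxc8 and Hoxc4, which the main fit did not test. The added call with DMSO was of Hoxc8. Hoxc8 went untested without NRF2 DMSO replicate 1 or 3, and Hoxc4 without EV DMSO replicate 2 or NRF2 DMSO replicate 3. Hoxc8 and Hoxc4 thus entered these fits only through DMSO libraries in which they were high, so these calls add no support. Values that did not pass changed sign for the Hoxb9 interaction (-0.46 to 0.34, with 0.34 without NRF2 DMSO replicate 2 and 0.25 without NRF2 romidepsin replicate 1), for Hoxc6 in NRF2 against EV cells with DMSO (-0.09 to 0.37, with -0.09 without EV DMSO replicate 3), and for Hoxc9 in NRF2 against EV cells with romidepsin (-0.42 to 0.19, with 0.06 without EV romidepsin replicate 2 and 0.19 without NRF2 romidepsin replicate 2). At 0.5 CPM, 1 low member, Hoxb9, reached the level with romidepsin in EV cells. The cause of these changes was not tested. Depth limits all members: Hoxb1, the most abundant over all libraries, had 36 to 87 counts per group.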
